A study of Mus musculus with 28 samples.

Results

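Aminoacyl-tRNA synthetases are the enzymes that load each amino acid onto its transfer RNA, the step that fixes the genetic code before a ribosome reads it. The genes were taken by name: 1 capital letter followed by ars, ars1 or ars2, together with Eprs, Farsa, Farsb and Tarsl2, with pseudogenes left out. This gave 38 genes, 21 for cytosolic enzymes and 17 for mitochondrial ones, and all 38 were present among the 15582 genes of the blastocyst table and the 16745 genes of the morula table. The name rule used no expression value.

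Mammalian cells keep separate sets of these enzymes for protein synthesis in the cytosol and in mitochondria. Gars and Kars serve both compartments from 1 gene each, and Tarsl2, in spite of its name, is counted here with the cytosolic set. Cytosolic enzymes for several amino acids sit together in the multisynthetase complex, and many cytosolic synthetase genes are known targets of Atf4, the transcription factor that turns on amino acid supply genes when charged tRNA or amino acids run short. The mitochondrial set, encoded in the nucleus and imported, serves the translation of the few respiratory chain subunits that mitochondria encode themselves.

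The measurements are RNA-seq of single whole CD1 mouse embryos, and the series title places them in a study of the insulator protein CTCF and of metabolism between morula and blastocyst. Of the blastocysts, 3 are labelled MZ_KO, 4 M_KO, 4 het and 3 WT_flfl. Of the morulae, 6 are labelled MZKO, 4 del and 3 het. The deposited counts are named E2.5 for the morulae and E3.5 for the blastocysts. These codes, and the alleles, Cre driver and litters behind them, are not explained in the labels. MZ_KO and M_KO blastocysts share 1 title prefix (C7) and WT_flfl and het blastocysts another (N89), so MZ_KO against M_KO is the comparison within a prefix. MZKO morulae have a prefix (C50) that no del or het morula has. Among the embryos analysed, sequencing batch 1 held every blastocyst and batch 2 every morula. A repeat library of het blastocyst 3 was in batch 2 and was not analysed. Stage therefore cannot be told apart from batch, and levels were not tested across stages. Since shared mothers are not recorded, p-values measure the spread between these embryos, and part of it may be technical.

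Ctcf itself was at 2.92, 4.22 and 3.72 CPM (a read count scaled to library size) in MZ_KO blastocysts 2, 6 and 7, and between 53.2 and 102 CPM in the other 11 blastocysts. In morulae it was between 0 and 8.68 CPM in MZKO, between 0 and 5.81 CPM in del and between 26.1 and 54.6 CPM in het. The del morulae are therefore as low in Ctcf as the MZKO morulae, although they share a prefix with het. Blastocysts gave 7377302 to 27883060 reads each. Morulae gave 12136606 to 20414013 reads, apart from del 6 with 1635553. Markers of blood cells summed to 34491 CPM in WT_flfl 1 and 31495 CPM in het 6 and to at most 11586 CPM in the other blastocysts, and each result below was also computed without those 2 embryos.

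Promoter sequence is shown here for the 3 genes with the deepest falls described below, Aars2, Iars2 and Nars2, and, as examples of the Atf4 element, for Gars, Tars and Asns. The element searched was TGATGNAA, the composite site for Atf4 and C/EBP proteins, in the 250 bases before each RefSeq start (build GRCm38.p6), on both strands. It was found in 3 of the 28 synthetase genes that had a promoter entry, and not all of them are shown. All 3 are cytosolic, among 14 cytosolic genes with an entry, and 0 of the 14 mitochondrial genes held it. Of all 27025 genes with an entry, 3.91% held it. Asns, asparagine synthetase and a well-known Atf4 target, held it too. Capitals mark the element. It lies on the opposite strand in Gars and Tars, and its first base is 30 and 15 bases before the start, and 23 bases before it in Asns.
Gars, chr6:55037960-55037989, + strand: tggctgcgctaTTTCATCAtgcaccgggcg
Tars, chr15:11399659-11399684, - strand: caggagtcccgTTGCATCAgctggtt
Asns, chr6:7693214-7693243, - strand: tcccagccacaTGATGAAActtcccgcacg

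The 250 bases before the start of the 3 mitochondrial genes follow, in lower case because neither the Atf4 element nor the Ctcf motif core CNAGNNGGC was found in them. The Ctcf core, searched in the same way, was present in 19.2% of all 27025 genes with an entry and in 2 of the 28 synthetase genes, Ears2 and Tars2. The absence of these letters from a window says nothing about binding elsewhere. GC content was 50.8% (Aars2), 51.6% (Iars2) and 58.4% (Nars2), against a median of 52.4% over all windows.
Aars2, chr17:45506591-45506840, + strand: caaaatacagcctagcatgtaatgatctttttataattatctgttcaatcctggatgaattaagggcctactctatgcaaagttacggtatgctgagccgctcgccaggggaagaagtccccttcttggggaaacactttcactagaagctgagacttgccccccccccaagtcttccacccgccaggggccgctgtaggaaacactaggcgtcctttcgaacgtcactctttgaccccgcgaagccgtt
Iars2, chr1:185329402-185329651, - strand: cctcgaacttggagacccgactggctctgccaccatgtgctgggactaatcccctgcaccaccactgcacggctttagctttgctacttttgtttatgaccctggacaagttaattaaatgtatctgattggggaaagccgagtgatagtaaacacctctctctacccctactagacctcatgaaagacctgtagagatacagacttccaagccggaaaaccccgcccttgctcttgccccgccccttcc
Nars2, chr7:96951277-96951526, + strand: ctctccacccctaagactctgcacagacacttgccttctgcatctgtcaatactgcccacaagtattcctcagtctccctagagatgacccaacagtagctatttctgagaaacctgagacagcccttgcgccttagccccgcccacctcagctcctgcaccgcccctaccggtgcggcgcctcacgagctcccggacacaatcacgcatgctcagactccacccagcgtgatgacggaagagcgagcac

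In MZ_KO blastocysts, RNA of 3 mitochondrial synthetases was lower by several fold and that of a few cytosolic ones by less, while most of the family did not pass the test. Against WT_flfl, 7 of 38 genes fell and 0 rose, with an adjusted p below 0.05 counted as a change (limma on log2(CPM + 1), Benjamini-Hochberg over 9585 genes). Of all genes tested in that comparison, 8.36% fell and 4.84% rose. The share of synthetases that fell, 7 of 38, lay above that background, and 0 of 38 rose. Neither share was tested against the background. Leaving out 1 embryo in turn gave 4 to 7 called synthetases. Fallen genes were the mitochondrial Aars2, Iars2, Nars2 and Hars2 and the cytosolic Aars, Iars and Eprs. The median log2 fold change was -0.42 over the 17 mitochondrial genes and -0.10 over the 21 cytosolic genes, beside -0.05 over all genes tested. The sum over the cytosolic genes was 4174 ± 426 CPM (SD, n = 3) in MZ_KO and 4754 ± 438 CPM (SD, n = 3) in WT_flfl.

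**Figure D1:**
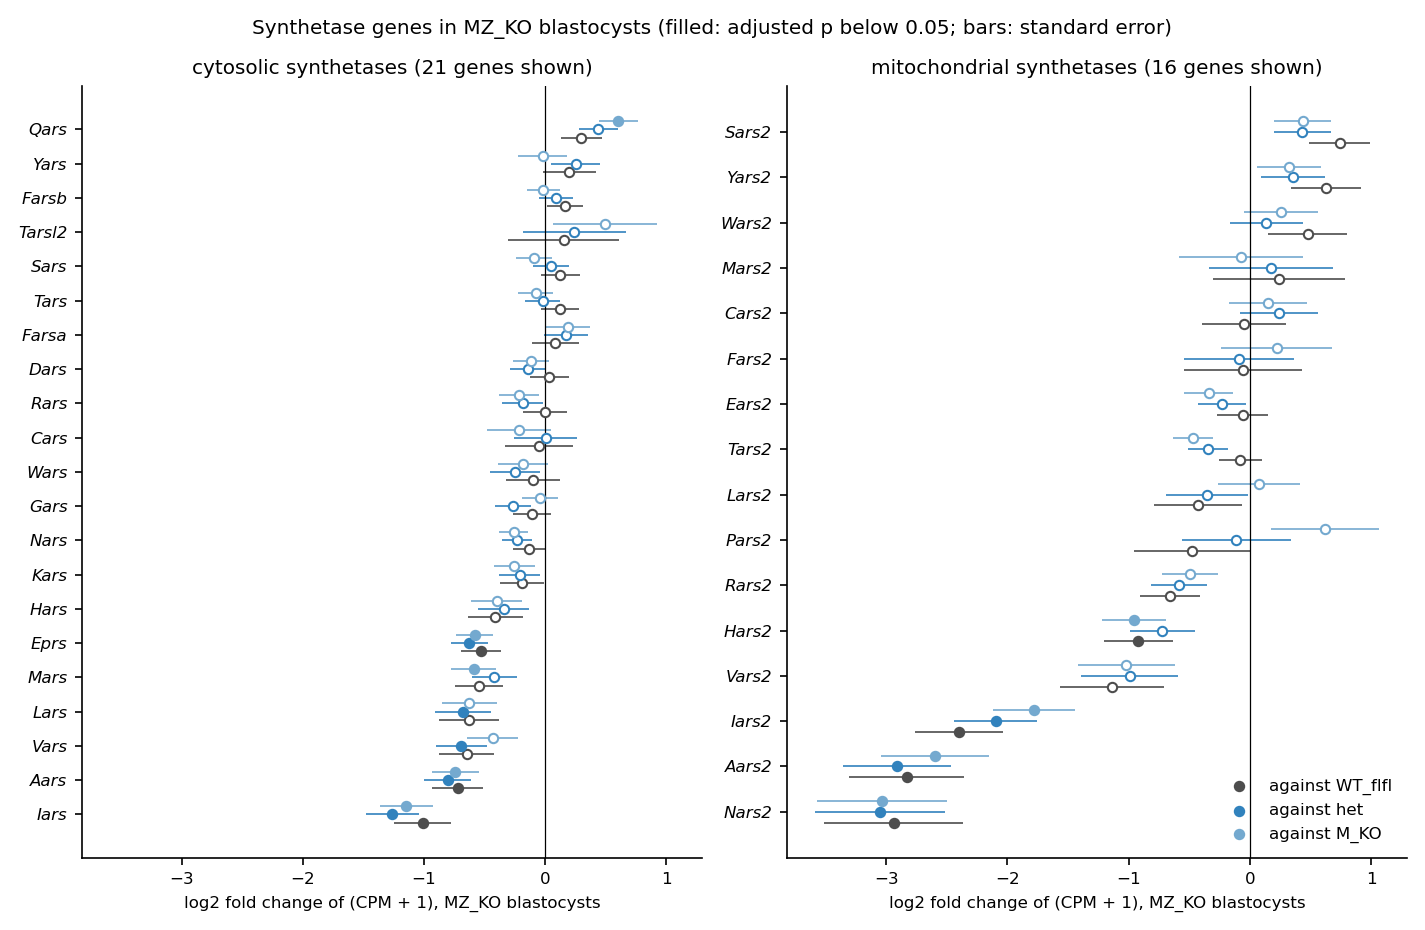
Log2 fold change of CPM + 1 (x axis) for 37 of the 38 synthetase genes (y axis), MZ_KO blastocysts against WT_flfl, het and M_KO; bars are standard errors and filled points have an adjusted p below 0.05. Nars2, Aars2 and Iars2 lie below -1.7 in all 3 comparisons, and Qars is the gene with a filled point above 0.

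The other groups gave similar counts, and the 3 comparisons share the same 3 MZ_KO embryos. Against het, 8 of 38 fell and 0 rose, where 10.8% of all genes fell and 7.02% rose. These were Aars2, Iars2, Nars2, Aars, Iars, Eprs, Lars and Vars. Against M_KO, 8 fell and 1 rose, where 8.09% of all genes fell and 3.74% rose. These were Aars2, Iars2, Nars2, Hars2, Aars, Iars, Eprs and Mars, with Qars as the gene that rose.

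Aars2 (chr17:45506841-45520843) encodes the mitochondrial alanyl-tRNA synthetase, in which human variants cause cardiomyopathy and ovarian failure with leukodystrophy. It was at 1.42, 13.3 and 4.79 CPM in MZ_KO 2, 6 and 7. WT_flfl embryos 1, 7 and 9 had 50.02, 42.7 and 31.4 CPM, het embryos 3, 5, 6 and 8 had 49.7, 36.5, 30.8 and 60.5 CPM, and M_KO embryos 1, 3, 4 and 5 had 42.8, 29.9, 39.4 and 27.95 CPM. All 3 MZ_KO embryos were below each of the 11 others, and MZ_KO 2 was the lowest. Groups without overlap were common among all 9585 genes tested. MZ_KO lay wholly below WT_flfl, het and M_KO in 17.4%, 14.4% and 12.2% of genes, and wholly above them in 14.9%, 12.5% and 9.96%. Against WT_flfl, 10 of the 38 synthetases lay wholly below and 3 wholly above. The log2 fold change was -2.83 ± 0.48 (SE) against WT_flfl (adjusted p = 0.00110), -2.91 ± 0.45 against het (adjusted p = 0.000436) and -2.60 ± 0.45 against M_KO (adjusted p = 0.00131).

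Nars2 (chr7:96951505-97064758) encodes the mitochondrial asparaginyl-tRNA synthetase and was the lowest of the fallen genes. MZ_KO embryos 2, 6 and 7 had 1.12, 7.53 and 0.184 CPM. The ranges elsewhere were 12.97 to 31.9 CPM in WT_flfl, 19.3 to 29.0 CPM in het and 16.8 to 31.5 CPM in M_KO, so MZ_KO overlapped none of them. Its log2 fold change was -2.94 ± 0.57 against WT_flfl (adjusted p = 0.00316), -3.05 ± 0.54 against het (adjusted p = 0.00125) and -3.04 ± 0.54 against M_KO (adjusted p = 0.00174). At these low levels the call depended on the model: with limma voom weights on the recovered reads the adjusted p was 0.0818, 0.0651 and 0.0899.

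Iars2 (chr1:185284726-185329396) encodes the mitochondrial isoleucyl-tRNA synthetase, and stood at the highest level of the 3 in WT_flfl. WT_flfl embryos 1, 7 and 9 had 95.8, 133 and 133 CPM. MZ_KO embryos 2, 6 and 7 had 15.8, 16.2 and 40.2 CPM, against 75.9 to 134 CPM in het and 42.4 to 111 CPM in M_KO. MZ_KO 7 came close to M_KO 3, the lowest of the other embryos, without overlap. The log2 fold change was -2.40 ± 0.36 against WT_flfl (adjusted p = 0.000453), -2.10 ± 0.34 against het (adjusted p = 0.000668) and -1.78 ± 0.34 against M_KO (adjusted p = 0.00299). Transcripts of Iars2 share a stretch of 2034 identical bases with those of Rab3gap2, whose gene overlaps it, and reads of that stretch cannot be told apart. Rab3gap2 did not pass the test, with log2 fold changes of -0.57 ± 0.60 against WT_flfl and 0.61 ± 0.56 against M_KO (adjusted p = 0.572 and 0.524).

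**Figure D2:**
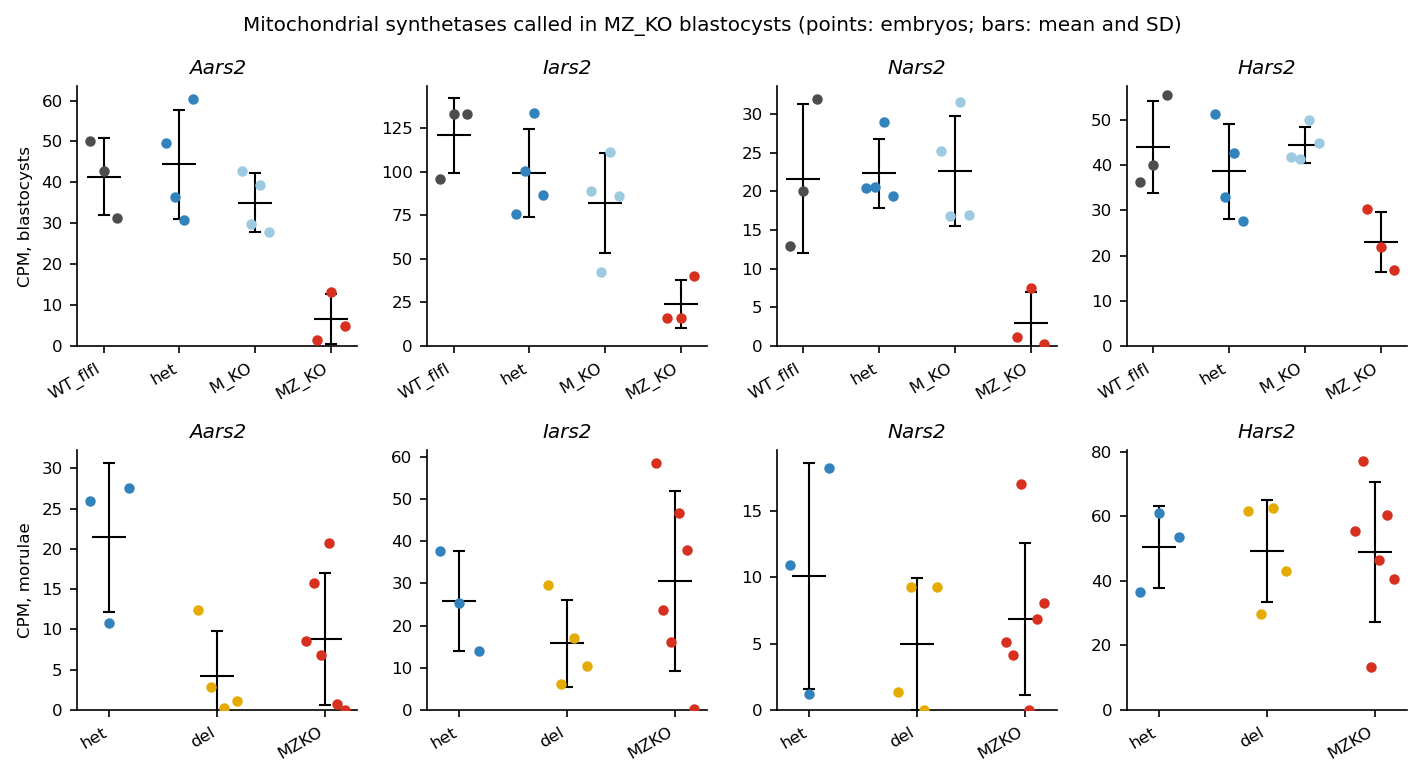
CPM (y axis, from 0) of Aars2, Iars2, Nars2 and Hars2 in each embryo of the blastocyst groups (upper row) and the morula groups (lower row); points are embryos, bars mean and SD. In blastocysts the 3 MZ_KO points of Aars2 lie at 1.42 to 13.3 CPM, below every other embryo, while in morulae the groups overlap.

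Hars2, the mitochondrial histidyl-tRNA synthetase, moved less. It was at 30.2, 21.95 and 16.9 CPM in MZ_KO 2, 6 and 7, against 36.4 to 55.6 CPM in WT_flfl, 27.7 to 51.3 CPM in het and 41.3 to 50.1 CPM in M_KO, so it overlapped het. Its log2 fold change was -0.92 ± 0.28 against WT_flfl (adjusted p = 0.0417) and -0.96 ± 0.27 against M_KO (adjusted p = 0.0283), and -0.72 ± 0.27 against het (adjusted p = 0.0714). Of 8 other processing settings (listed below), 4 kept the call against WT_flfl and 7 that against M_KO. The call against WT_flfl was also lost without any one of MZ_KO 6, MZ_KO 7, WT_flfl 1, WT_flfl 7 or WT_flfl 9 (adjusted p up to 0.152). That against M_KO was lost without any one of MZ_KO 6, MZ_KO 7, M_KO 1, M_KO 4 or M_KO 5 (adjusted p up to 0.108). Hars2 and the cytosolic Hars start head to head on chromosome 18 and their gene models overlap by 198 bases. Hars had log2 fold changes of -0.41 ± 0.23 and -0.40 ± 0.21 in the same comparisons (adjusted p = 0.247 and 0.241).

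The other 13 mitochondrial genes did not pass the test in any of the 3 comparisons. By size of change against WT_flfl the first were Vars2, for valine, with -1.13 ± 0.43 (adjusted p = 0.0901), and Sars2, for serine, with 0.74 ± 0.25 (adjusted p = 0.0623). Vars2 was at 10.2, 23.6 and 13.3 CPM in MZ_KO and at 27.9 to 40.7 CPM in WT_flfl without overlap, but M_KO 3 was at 12.4 CPM. Sars2 was at 99.7 to 128 CPM in MZ_KO and 42.3 to 81.7 CPM in WT_flfl, with het 3 and M_KO 4 reaching 104 and 103 CPM. Without Lars2, whose reads are treated below, the sum of the other 16 genes was 610 to 661 CPM in MZ_KO and 733 to 924 CPM in the other blastocysts. That sum includes the called genes Aars2, Iars2, Nars2 and Hars2. It therefore does not show a fall of the genes that did not pass.

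Among cytosolic enzymes, Iars had the largest fall. Iars (chr13:49682100-49734267) encodes isoleucyl-tRNA synthetase, a member of the multisynthetase complex and the cytosolic partner of Iars2. It was at 71.6, 165 and 115 CPM in MZ_KO 2, 6 and 7, against 223, 224 and 226 CPM in WT_flfl, 228 to 335 CPM in het and 206 to 284 CPM in M_KO. No MZ_KO embryo reached any other blastocyst. The log2 fold change was -1.01 ± 0.23 against WT_flfl (adjusted p = 0.00918), -1.26 ± 0.22 against het (adjusted p = 0.00113) and -1.15 ± 0.22 against M_KO (adjusted p = 0.00299). A pseudogene, Gm4849, matches 1656 bases of its transcript at 96.0% identity and is in neither table, so its reads could be counted as Iars.

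Aars (chr8:111033144-111057664), the cytosolic alanyl-tRNA synthetase, was at 188, 229 and 239.5 CPM in MZ_KO 2, 6 and 7. WT_flfl had 332 to 401 CPM, het 276 to 433 CPM and M_KO 259 to 461 CPM, all above MZ_KO. Its log2 fold change was -0.72 ± 0.21 against WT_flfl (adjusted p = 0.0301), -0.80 ± 0.19 against het (adjusted p = 0.00945) and -0.74 ± 0.19 against M_KO (adjusted p = 0.0206). The first of these was lost without any one of MZ_KO 2, MZ_KO 6 or the 3 WT_flfl embryos (adjusted p up to 0.111), the others without MZ_KO 2 (adjusted p = 0.0524 and 0.0934) and, against M_KO, also without M_KO 1 or M_KO 5. Aars transcripts share 1326 bases with those of Exosc6, which had -0.43 ± 0.26 against WT_flfl (adjusted p = 0.303).

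Eprs (chr1:185363044-185428360), the fused glutamyl- and prolyl-tRNA synthetase of the complex, is the gene next but 1 to Iars2, with Bpnt1 between them. It was at 181, 204 and 267 CPM in MZ_KO 2, 6 and 7, 263 to 345 CPM in WT_flfl, 307 to 366 CPM in het and 286 to 376 CPM in M_KO, so MZ_KO 7 overlapped WT_flfl. The log2 fold change was -0.53 ± 0.17 against WT_flfl (adjusted p = 0.0446), -0.63 ± 0.15 against het (adjusted p = 0.0107) and -0.58 ± 0.15 against M_KO (adjusted p = 0.0220). Bpnt1 had -0.06 ± 0.34 against WT_flfl (adjusted p = 0.937). The call against WT_flfl was kept in only 3 of 8 other processing settings (listed below) and was lost in the rest, voom weights among them. It was also lost without any one of MZ_KO 2, MZ_KO 6, WT_flfl 7 or WT_flfl 9 (adjusted p up to 0.172). Without MZ_KO 2 the other calls were lost too (adjusted p = 0.0635 and 0.110). That against M_KO was also lost without MZ_KO 6 or M_KO 4, and with only the groups compared in the fit.

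Lars, Vars and Mars, for leucine, valine and methionine, passed in 1 comparison each. Lars was at 46.6, 60.2 and 32.8 CPM in MZ_KO and 64.4 to 79.2 CPM in het, a log2 fold change of -0.68 ± 0.23 (adjusted p = 0.04999). Vars was at 145, 271 and 180.1 CPM in MZ_KO and 285 to 362 CPM in het, with -0.69 ± 0.21 (adjusted p = 0.0326). Mars was at 198, 298 and 398 CPM in MZ_KO and 378 to 486 CPM in M_KO, with -0.59 ± 0.19 (adjusted p = 0.0487). Of 8 other processing settings (pseudocount, filter, scaling, weights, groups in the fit, and leaving out WT_flfl 1 with het 6), Lars passed in 1, Vars in 7 and Mars in 2. In addition, without MZ_KO 2 none of the 3 passed. Leaving out MZ_KO 7 or any het embryo also ended the call of Lars, MZ_KO 7, het 3 or het 6 that of Vars, and MZ_KO 6, M_KO 1, M_KO 4 or M_KO 5 that of Mars (adjusted p up to 0.208, 0.166 and 0.251 over the embryos left out).

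Qars, the glutaminyl-tRNA synthetase of the complex, went the other way. It was at 211, 232 and 230.1 CPM in MZ_KO 2, 6 and 7, above all 11 other blastocysts: 171 to 205 CPM in WT_flfl, 144 to 194 CPM in het and 129 to 176 CPM in M_KO. Its log2 fold change was 0.60 ± 0.16 against M_KO (adjusted p = 0.0209), and 0.44 ± 0.16 against het and 0.30 ± 0.17 against WT_flfl (adjusted p = 0.0651 and 0.267). Without any one of MZ_KO 6, MZ_KO 7 or M_KO 1 the call was lost (adjusted p up to 0.0677).

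**Figure D3:**
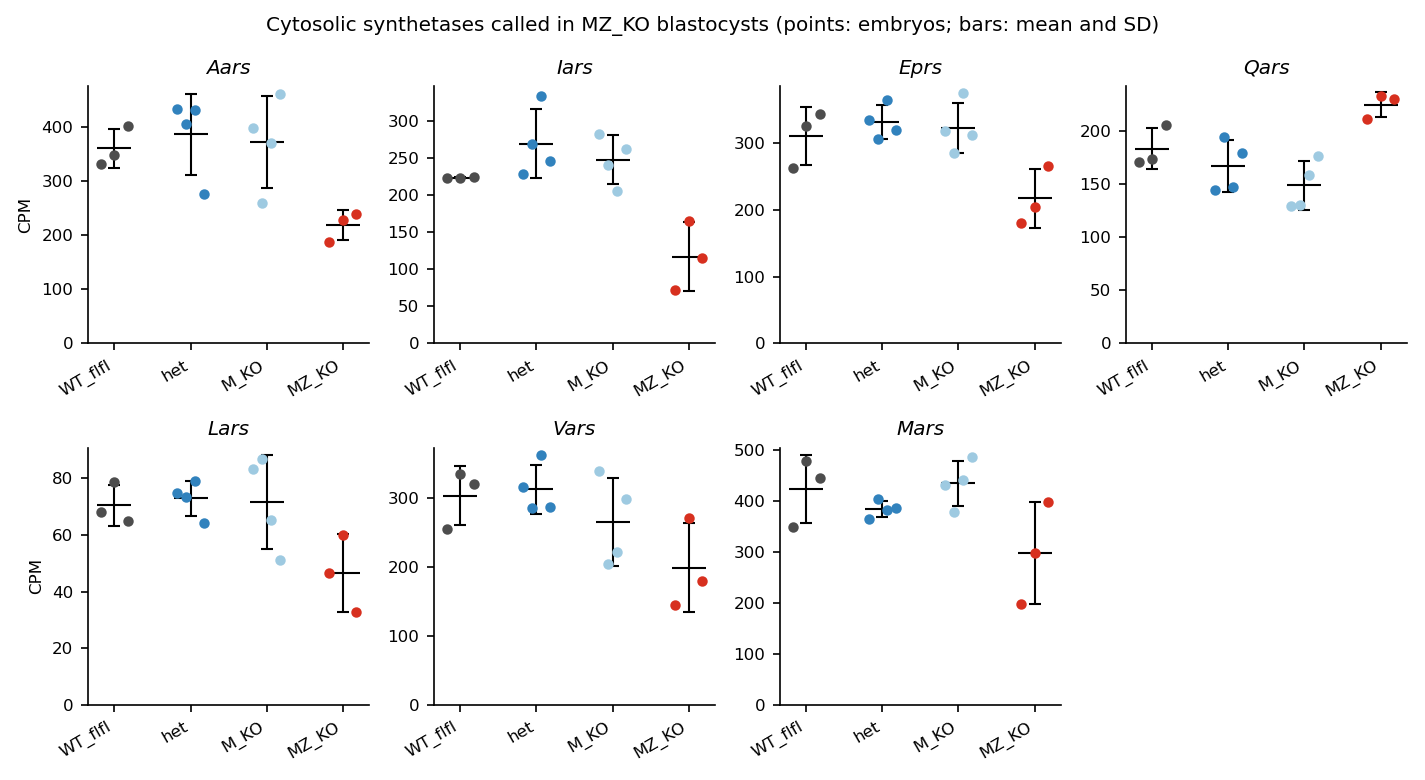
CPM (y axis, from 0) of the 7 cytosolic synthetase genes called in MZ_KO blastocysts, in each embryo of the 4 blastocyst groups; points are embryos, bars mean and SD. Iars in MZ_KO lies at 71.6 to 165 CPM with every other embryo at 206 CPM or more, and Qars is the panel in which MZ_KO lies highest.

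Most of the 8 multisynthetase complex enzymes among these genes had a negative log2 fold change, and fewer passed the test. The negative ones numbered 6 against WT_flfl and 7 against each of het and M_KO, with medians of -0.36, -0.31 and -0.42. All genes tested had medians of -0.05, -0.06 and -0.03. Of these 8 enzymes, Iars and Eprs fell against WT_flfl, and 3 fell against het (with Lars). Against M_KO 3 fell (with Mars) while Qars rose. Dars, Kars and Rars passed in none of the 3 comparisons, with log2 fold changes between -0.25 and 0.03. The non-enzyme scaffolds Aimp1, Aimp2 and Eef1e1 were all tested, and 0 of 3 passed in any of the 3. Of the 12 cytosolic enzymes commonly listed as Atf4 targets, 3 fell against WT_flfl and 4 against each of het and M_KO, and 0 rose. Negative log2 fold changes were found for 9, 9 and 12 of the 12. Of all genes tested, 8.36%, 10.8% and 8.09% fell against WT_flfl, het and M_KO. The counts of these subgroups were not tested against those shares.

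Without MZ_KO embryos, no synthetase gene passed. M_KO against WT_flfl, M_KO against het and het against WT_flfl each gave 0 of 38 in limma and 0 with voom weights, where 0% of all genes rose and 0% fell. At an unadjusted p below 0.05 there were 2, 0 and 0 synthetases in these comparisons, beside 494, 638 and 187 of all 9585 genes. The 2 were the mitochondrial Pars2 and Tars2, and the largest change was that of Pars2, for proline, with -1.09 ± 0.45 in M_KO against WT_flfl (adjusted p = 0.914). For Iars2, M_KO lay between the groups (82.2 ± 28.7 CPM, SD, n = 4, against 121 ± 21.6 in WT_flfl, n = 3), and the difference of -0.61 ± 0.34 did not pass (adjusted p = 0.952).

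Genes that serve charged tRNAs were read from lists beside the synthetases. For these lists and those that follow, the background is the share of all genes tested. Against WT_flfl, het and M_KO, 8.36%, 10.8% and 8.09% of all genes fell and 4.84%, 7.02% and 3.74% rose. No list count was tested against these shares. In the mitochondrial translation list, 2 of 14 fell against WT_flfl, 3 against het and 2 against M_KO, and 0 rose. Gfm1, the mitochondrial elongation factor G1, was at 5.82 ± 7.09 CPM (SD, n = 3) in MZ_KO and 167 ± 24.4 CPM (SD, n = 3) in WT_flfl, a log2 fold change of -5.31 ± 0.57 (adjusted p = 2.19e-05). Tsfm, the exchange factor for mitochondrial elongation factor Tu, was at 21.1 ± 10.7 and 62.6 ± 3.20 CPM, with -1.63 ± 0.30 (adjusted p = 0.00204). In the list of mitochondrial tRNA processing and modification, 2 of 14 rose in each comparison, and 1 fell against M_KO (Trmu, -1.16 ± 0.36, adjusted p = 0.0445). The values of those that rose were, against WT_flfl, Yrdc, which makes the threonylcarbamoyl mark, with 0.94 ± 0.17 (adjusted p = 0.00217), and 1110008L16Rik with 1.00 ± 0.31 (adjusted p = 0.0437).

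On the cytosolic side, 0 of 7 elongation factors passed in any of the 3 comparisons. Of 13 eIF2 kinases and partners, 0 passed against WT_flfl or het and 1 fell against M_KO, Gcn1l1, the activator of the kinase Gcn2, with -0.70 ± 0.20 (adjusted p = 0.0349). Of 10 genes for tRNA editing and related steps, 2 fell against WT_flfl, 2 against het and 1 against M_KO. Against WT_flfl these were Pstk, the kinase of the selenocysteine route, with -1.47 ± 0.42 (adjusted p = 0.0295), and Xpot, the tRNA export factor, with -0.78 ± 0.24 (adjusted p = 0.0411). Among 12 amino acid transporters 1 rose in each comparison, Slc1a1, a carrier of glutamate and aspartate, with 1.10 ± 0.22 against WT_flfl (adjusted p = 0.00411). None fell against WT_flfl, 4 fell against het (Slc7a3, Slc7a6, Slc6a14 and Slc7a5) and 2 against M_KO (Slc7a3 and Slc7a5). The cationic amino acid carrier Slc7a3 had -3.05 ± 0.74 against het and -3.78 ± 0.74 against M_KO (adjusted p = 0.009895 and 0.00373).

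Atf4 and its targets other than synthetases moved both ways. Of 18 tested, 4 fell and 3 rose against WT_flfl, and their median log2 fold change was -0.13. Beside them, 8.36% of all genes fell and 4.84% rose. Asns was at 6.999, 4.59 and 3.39 CPM in MZ_KO 2, 6 and 7 and at 34.8 to 198 CPM in the other 11 blastocysts, with -3.57 ± 0.53 (adjusted p = 0.000369). Mthfd2, of mitochondrial folate metabolism, had -2.30 ± 0.48 (adjusted p = 0.00487), while Cth, of cysteine synthesis, had 1.33 ± 0.26 (adjusted p = 0.00332) and Eif4ebp1, a repressor of cap-dependent translation, 0.87 ± 0.18 (adjusted p = 0.00468). Atf4 itself was at 121 to 171 CPM in MZ_KO and 89.3 to 123 CPM in WT_flfl, and 0.39 ± 0.21 did not pass (adjusted p = 0.245).

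Some markers of the embryo's cell types changed in the same embryos. Of the lineage markers tested against WT_flfl, 3 of 7 trophectoderm genes fell (Fgfr2, Krt8 and Eomes), 3 of 8 primitive endoderm genes fell (Lamb1, Gata4 and Sox17), and of 7 epiblast and inner cell mass genes Nanog rose and Tdgf1 fell. In that comparison 8.36% of all genes fell and 4.84% rose. Trophectoderm markers summed to 3773 to 5049 CPM in MZ_KO and 7153 to 7389 CPM in WT_flfl. Het and M_KO reached down to 4748 and 5507 CPM. Primitive endoderm markers summed to 832 to 1244 CPM in MZ_KO and 969.6 to 1161 CPM in WT_flfl, and epiblast markers to 1181 to 1375 CPM and 1008 to 1244 CPM. Since whole embryos were sequenced, fewer cells of a type and less RNA per cell cannot be told apart. The part of these shifts in the synthetase values was not tested.

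Of 8 granulosa markers, 7 were outside the blastocyst table, and the sum reached 7.17 CPM in MZ_KO, 78.6 CPM in M_KO, 1.37 CPM in het and 0 in WT_flfl. Oviduct markers summed to at most 44.2 CPM in MZ_KO, 107 CPM in M_KO, 138 CPM in WT_flfl and 523 CPM in het. Of 5 blood markers tested, 0 passed, and their part was not tested apart from the fit without WT_flfl 1 and het 6, in which 5 synthetases fell against WT_flfl (Iars, Eprs, Aars2, Iars2 and Nars2). In morulae, het 1 and MZKO 1 were highest in blood markers, at 15542 and 4087 CPM (others at most 1306). They were also highest in oviduct markers, at 1265 and 1917 CPM (others at most 307), and in granulosa markers, at 139.7 and 27.7 CPM. The part of this RNA in the morula values was not tested.

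Neighbouring genes were read beside the fallen genes, after the values had been seen. Slc35b2, a solute carrier gene 43030 bases beyond Aars2, fell in MZ_KO (-1.95 ± 0.28 against WT_flfl, adjusted p = 0.000295). Spats1 on the other side did not pass (-0.49 ± 0.54, adjusted p = 0.592). The nearest tested genes on both sides of Iars2, Nars2, Iars, Aars and Eprs did not pass against WT_flfl. Of all genes tested in that comparison, 8.36% fell. Neighbours of the other fallen genes are not reported here, and a shared effect on neighbours was not tested.

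In morulae no synthetase gene passed. MZKO against het gave 0 of 37 tested (41 of all 9953 genes rose, 0.412%, and 7 fell, 0.0703%), MZKO against del 0 of 37 (0.141% of all genes rose and 0.0402% fell), and del against het 0 of 37 (0% rose and 0.0100% fell). With voom weights the counts were also 0. At an unadjusted p below 0.05 there were 3, 2 and 4 synthetases, beside 862, 821 and 503 of all 9953 genes. Few genes of any kind passed at this stage, so a count of 0 lies at the background. Tarsl2 was under the filter, at 2.39 to 17.9 CPM. In the lists read beside the synthetases, 1 gene passed in MZKO against het, Impact of the eIF2 list. It rose, with a log2 fold change of 3.04 ± 0.39 (adjusted p = 0.00029).

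By size of change the first in MZKO against het was Aars2. It was at 25.9, 10.8 and 27.5 CPM in het 1, 5 and 7. MZKO embryos ran from 0 to 20.7 CPM with a median of 7.73 CPM, and del embryos were at 12.4, 2.84, 0.287 and 1.16 CPM. The groups overlapped. The log2 fold change was -1.78 ± 1.01 for MZKO (adjusted p = 0.676) and -2.59 ± 1.09 for del (adjusted p = 0.891). Iars2 was at 14.02 to 37.7 CPM in het, 6.10 to 29.6 CPM in del and 0.236 to 58.7 CPM in MZKO, with -0.34 ± 0.91 for MZKO against het (adjusted p = 0.953). Nars2 was at 1.23 to 18.3 CPM in het and 0 to 17.05 CPM in MZKO, with -0.45 ± 1.04 (adjusted p = 0.943). The standard errors of these 3 genes, 0.91 to 1.04, were larger than those in blastocysts. Iars, at 130 to 213 CPM in het and 84.3 to 189 CPM in MZKO, had -0.15 ± 0.34 (adjusted p = 0.942).

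**Figure D4:**
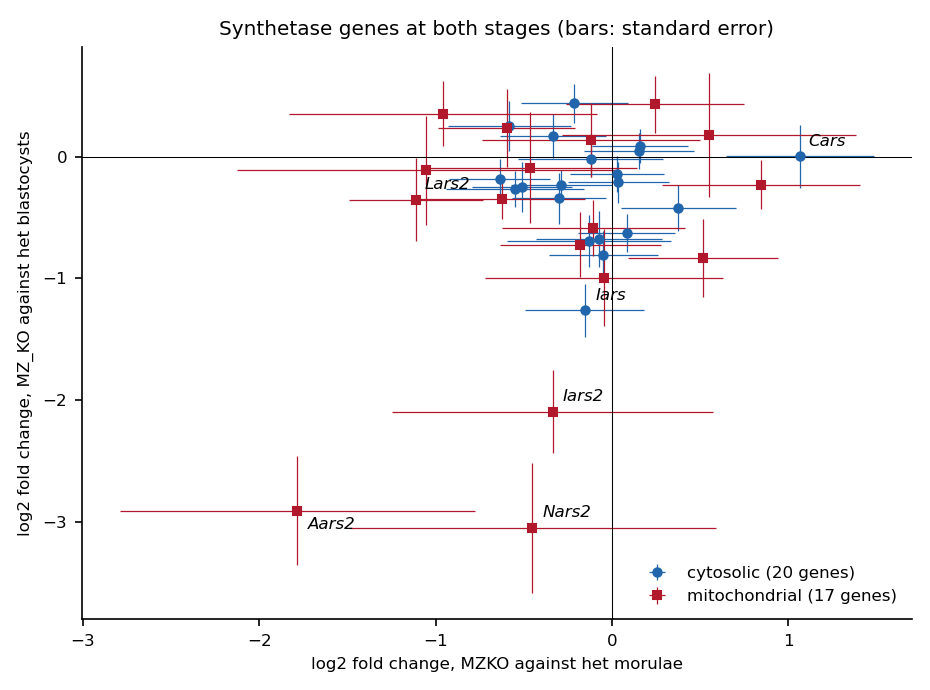
Log2 fold change of the Ctcf-low embryos against het of the same stage for 37 synthetase genes, morulae (MZKO, x axis) against blastocysts (MZ_KO, y axis); bars are standard errors. Aars2, Nars2 and Iars2 lie below -2 on the blastocyst axis, and their morula bars are wide, while no gene passed the test in morulae.

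The difference between the stages was tested directly, as MZ knockout effect against het in blastocysts minus that in morulae. Here 0 of 37 synthetases passed, where 0.630% of 8572 genes were higher and 0.980% lower, and 0 passed with voom weights. At an unadjusted p below 0.05 there were 4, beside 1521 of all 8572 genes. The smallest adjusted p was that of Iars, with a difference of -1.11 ± 0.42 (adjusted p = 0.157). For Nars2 the difference was -2.60 ± 1.21 (adjusted p = 0.254), for Iars2 -1.76 ± 1.08 (adjusted p = 0.410) and for Aars2 -1.13 ± 1.141 (adjusted p = 0.645). Without MZKO 8, in which Iars2 was at 0.236 CPM, Iars2 passed and the count was 1. A fall in blastocysts that is absent from morulae is therefore not shown by this test.

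Lars2 stood apart from the other 37 genes in level. Lars2, the mitochondrial leucyl-tRNA synthetase (chr9:123366927-123462666), was at 9280, 10479 and 6599.6 CPM in het morulae 1, 5 and 7. The del morulae 2, 3, 4 and 6 had 2092, 2854, 7171 and 6387 CPM, and MZKO morulae ran from 2938 to 5751 CPM with a median of 4163 CPM. It took 91.3% to 95.3% of all mitochondrial synthetase CPM in het morulae. Per kilobase of exon, Lars2 was at 792 ± 179 CPM (SD, n = 3) in het morulae, and the next gene, Farsb, at 81.5 ± 11.8. In WT_flfl blastocysts the first 3 genes per kilobase were Mars (124 ± 19.4), Gars (119.8 ± 19.7) and Nars (107 ± 10.8), whose spreads overlap, and Lars2 was at 57.2. All 6 MZKO morulae were below all 3 het morulae, as was so for 1.91% of all 9953 genes tested. The log2 fold change of Lars2 was -1.11 ± 0.38 for MZKO and -1.08 ± 0.41 for del, neither past the threshold (adjusted p = 0.317 and 0.805).

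Lars2 values followed those of another gene. Gm15564, a non-coding gene singled out after its values were seen, shares 72 bases with the Lars2 transcript at 98.6% identity (bases 3278 to 3349 of 3894). In morulae the ratio of Lars2 to Gm15564 CPM stayed between 31.5 and 38.0 in all 13 embryos while Lars2 itself ranged from 2092 to 10479 CPM. In blastocysts it stayed between 12.1 and 16.1 in all 14 embryos while Lars2 ranged from 337 to 1183 CPM. The log2 fold change of Gm15564 in MZKO against het morulae was -1.16 ± 0.37 (adjusted p = 0.247), beside -1.11 for Lars2. Reads from the shared stretch cannot be told apart between the 2 genes, and what part of the Lars2 reads comes from the synthetase transcript was not tested. The 2 blastocysts highest in Lars2, het 6 (1183 CPM) and WT_flfl 1 (959 CPM), are those highest in blood markers. In morulae the 2 rankings differed. The morula highest in Lars2, het 5 (10479 CPM), had 394 CPM of blood markers. The morula highest in blood markers, het 1 (15542 CPM), had 9280 CPM of Lars2.

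**Figure D5:**
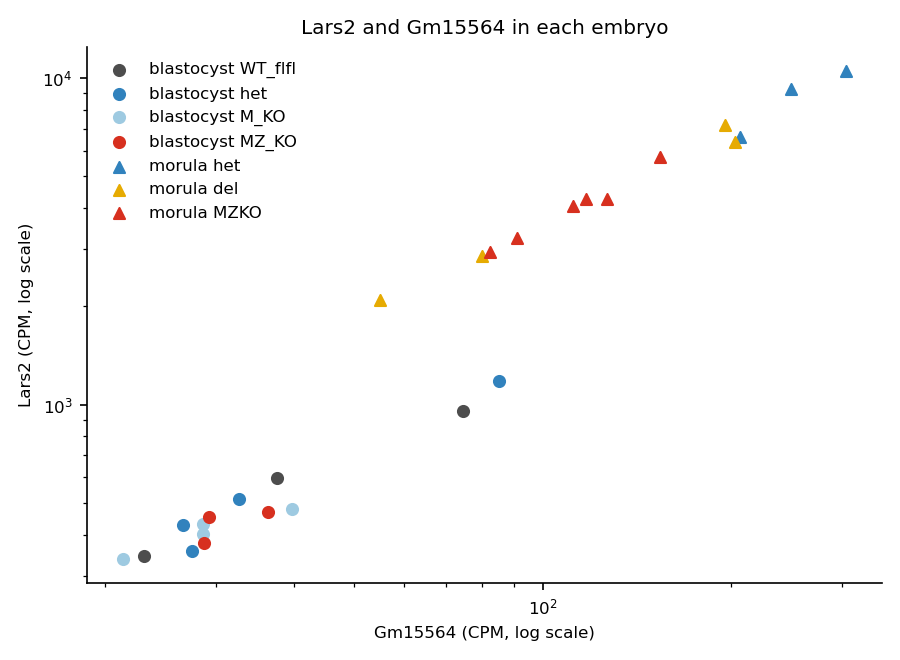
Lars2 (y axis) against Gm15564 (x axis), both in CPM on log scales, 1 point per embryo; circles are blastocysts and triangles morulae, coloured by group. The 13 morulae lie on 1 line, Lars2 at 31.5 to 38.0 times Gm15564, and the 14 blastocysts on a lower one, at 12.1 to 16.1 times.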

How the data were processed

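Single embryos were made into libraries with the SMART-Seq Ultra Low Input kit, per the labels' protocols. Cutadapt 1.14, Bowtie2 2.2.9, RSEM 1.3.1 and the builds GRCm38 and mm10 are named, without role or order, per the submitters' processing notes. For strand use, the sources used here say nothing. The authors deposited log2 values, 1 table per stage. Undoing the logarithm and an offset of 0.5 reads gave whole reads for 100% of values (tolerance 0.01 reads), with library sizes scaled by the authors. The files do not state this form, which was read from the values. In all, 3 rows of the blastocyst table that name no mouse gene, at most 0.0113% of reads, were left out. Ensembl identifiers were matched to GENCODE M21 symbols for 15575 of 15582 and 16731 of 16745 genes.

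Genes reaching 10 CPM in 3 or more embryos were tested on log2(CPM + 1) with limma 3.58.1 (trend, R 4.3.3), two-sided, fitting the groups of each stage together, with Benjamini-Hochberg adjustment over all genes tested. The scale understates changes of low genes. The stage difference was fitted over both tables, each effect within its own. In all, 10 comparisons were made. Transcripts were compared with BLAST 2.17.0+ (at least 95% identity over 100 bases), which found a copy of another gene for 13 of the 38. Promoters are those of RefSeq, matched for 28 of 38 genes. Some items are not reported here. The fit was tested on simulated data.

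Alternatives were other pseudocounts, filters, scaling, voom weights, fewer groups, a replicate block and left-out embryos. Every called synthetase is named, with the 2 largest uncalled ones in MZ_KO against WT_flfl and in MZKO against het, at most 4 genes per list by adjusted p, and Atf4, Asns and Gfm1 by choice. Other named genes, among them list genes called only against het or M_KO, were chosen after their values were seen. The members, lists and tests were chosen with earlier results of these data known. A repeat sample of het blastocyst 3 was not analysed here.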

Additional observations from a re-analysis of the deposited data

Results flagged for a closer look

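Within groups of 4 to 10 embryos, 15 of 152 gene and group pairs (9.87%) held 1 embryo far from the others by Dixon's criterion, where chance gives about 1 in 20. No explanation was tested for any of them.

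MZKO morula 8 was lowest of its group in 3 genes. It had 0.236 CPM of Iars2 (next lowest 16.2), 84.3 CPM of Iars (next 141) and 12.3 CPM of Tars2 (next 47.7). MZKO morula 3 was highest in Cars2 (87.0 CPM, next 54.2) and lowest in Hars2 (13.2 CPM, next 40.6). MZKO morula 1 was lowest in Farsb with 128 CPM (next 234), and MZKO morula 2 highest in Hars with 169.7 CPM (next 108).

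In del morula 6, the shallowest library, Cars2 was highest at 109 CPM (next 49.1) and Wars2 lowest at 3.48 CPM (next 39.7). In del morula 4, Mars2 was lowest at 0.0719 CPM (next 19.6) and Pars2 lowest at 0 CPM (next 15.1).

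Among het blastocysts, embryo 8 was lowest in Aars (276 CPM, next 406) and highest in Cars2 (51.6 CPM, next 38.5). Embryo 3 was lowest in Kars (130.3 CPM, next 189.6). Embryo 6 was highest in Nars2 (29.0 CPM, next 20.6).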

How the results depend on the processing

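None of the 24 calls of a synthetase in MZ_KO blastocysts turned direction under any setting run, and 9 of them, those of Iars, Aars2 and Iars2, passed under every setting other than the replicate block. With the embryo number as a replicate block, 0 synthetases passed against WT_flfl, 1 against het (Iars2, adjusted p = 0.0305 in limma) and 0 against M_KO, and over all genes 48, 110 and 13 passed in place of 1265, 1711 and 1133. The numbers do not pair the embryos. Deviations of same-numbered embryos correlated between -0.19 and 0.01 in blastocysts and between -0.12 and 0.14 for MZKO and del morulae. However, MZKO 1 and het 1, the 2 morulae highest in blood and oviduct markers, reached 0.73. Of the 4 MZKO morulae with a del morula of the same number, 2 correlated best with it. Leaving out 1 embryo in turn gave 4 to 7 synthetases against WT_flfl (lowest without WT_flfl 7 or 9), 6 to 9 against het, 5 to 10 against M_KO (lowest without M_KO 1) and 0 to 1 for the difference between stages (1 without MZKO 8). It gave 0 in the other 6 comparisons. Genes called overall moved by more than 1.5 times without WT_flfl 1 and het 6 (787 against WT_flfl, 1011 against het), without WT_flfl 1 or WT_flfl 7 (826 and 783 against WT_flfl), without MZ_KO 2 (1058 against het, 711 against M_KO), without M_KO 1 (724 against M_KO), without MZKO 1 or het 7 (90 and 29 for MZKO against het morulae), and with voom weights in morulae (24 for MZKO against het in place of 48, 2 for MZKO against del in place of 18). For the difference between stages, 138 genes became 228 relative to read totals, 65 with only the groups compared, 0 with the block and 53 to 706 without 1 embryo. Depth limits low genes most in del morula 6, with 1635553 reads.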
